A study of Mus musculus with 96 samples.

Results

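The genes described are 10 of the 40202 genes in the count files: the transcription factor gene Nfe2l2 (NRF2), its repressor Keap1, the glutathione genes Gclc, Gclm and Gsr, and the thioredoxin and peroxiredoxin genes Txn1, Txnrd1, Srxn1, Prdx1 and Prdx6. They were chosen by name, as the core of the NRF2-regulated thiol defence, and all 10 were matched by symbol. The study made 96 RNA libraries, each from 1 sorted cell of C10, a mouse lung line labelled as alveolar type II epithelial, with nanoSPLITS, a method that divides the contents of 1 cell so that RNA and protein can both be measured. The 48 control cells received no treatment, and the 48 others received RO-3306, sold as an inhibitor of the cell cycle kinase CDK1, at 10 nM for 36 h. Both groups were grown in the same serum-containing medium, and no genetic change is named for either. The titles carry letters A to D whose meaning is not given, called sets here, and no separate cultures are named, so each treatment counts as 1 sample, no test between treatments was possible, and all intervals below cover counting error only.

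The cell filter asked for 50000 counts or more and no fewer than 1000 genes, which left 29 control cells (10, 8, 6 and 5 in sets A to D) and 37 RO-3306 cells (10, 10, 11 and 6). Nearest to the threshold inside it were control cell D10, with 59979 counts and 4719 genes, and control cell C3, with 604699 counts and 2109 genes. Just outside lay RO-3306 cell C12, with 48054 counts and 884 genes, and RO-3306 cell D5, with 773537 counts and 943 genes. Kept control cells held 59979 to 6457210 counts (median 1753430), and kept RO-3306 cells 295005 to 5321880 (median 2234310). With each cell thinned to 639000 reads, a median of 4576 genes was detected over 25 control cells, and of 5958 over 34 RO-3306 cells. Against the label, of 10 alveolar type II markers 6 had no count in control and 5 none in RO-3306 cells, the surfactant genes Sftpa1, Sftpc and Sftpd among them in both, and 6 epithelial markers summed to 1.78 and 0.978 CPM, counts per 1000000 counts assigned to genes. A sum over 8 mesenchymal markers, Vim and collagen genes among them, was 4549 CPM without and 1673 CPM with RO-3306 (range over single cells 943 to 9911 and 576 to 12934), with only Thy1 at 0. The 10 macrophage markers summed to 58.6 and 61.3 CPM, with 3 and 4 of them at 0. The part of these marker and gene-detection differences in the results below was not tested.

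NRF2 is a transcription factor that KEAP1 holds in the cytoplasm and passes to degradation; oxidants and electrophiles modify KEAP1, and NRF2 then reaches the nucleus and binds antioxidant response elements with small MAF proteins. Among its targets are GCLC and GCLM, the catalytic and modifier subunits of glutamate cysteine ligase, which makes the first intermediate of glutathione, and TXNRD1, which returns oxidised thioredoxin to its reduced form with NADPH. Glutathione, thioredoxin and the peroxiredoxins are main routes by which lung cells remove peroxides and repair oxidised thiols.

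The start regions of the genes were examined for the letters that NRF2 is known to bind, because most of the 10 genes had ratios on the same side of 0. RefSeq promoter windows (GRCm38.p6, 250 bases before to 50 after a start) matched 7 of the 10 genes. No window was matched for Gclc, Gsr and Prdx6. The core of the antioxidant response element, written TGACNNNGC and searched on both strands, was in 12.4% of all 32851 windows. By gene, it was in a window of 13.99% of 27025 genes and of 5 of the 7: Nfe2l2, Gclm, Txnrd1, Srxn1 and Prdx1. Txnrd1 had 3 windows in which to match. Since the genes were chosen as NRF2-regulated, a share above that of all genes was likely from the choice and is not a result of these data. TGAGTCA, the AP-1 site, was in 5.20% of windows and 5.95% of genes, and of the 7 genes in Srxn1 and Prdx1, each with 2 matches. GCGTG, the xenobiotic response element core, was in 32.4% of windows and 35.2% of genes, and also in 5 of the 7: Keap1, Gclm, Txn1, Txnrd1 and Srxn1. The sequences below are the 250 bases before the start, 5′ to 3′ on the gene's own strand, for 4 genes that hold a match to the first motif and that the results turn on; capitals mark matches to TGACNNNGC or TGAGTCA on either strand.

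Gclm, chr3:122245307-122245556, plus strand: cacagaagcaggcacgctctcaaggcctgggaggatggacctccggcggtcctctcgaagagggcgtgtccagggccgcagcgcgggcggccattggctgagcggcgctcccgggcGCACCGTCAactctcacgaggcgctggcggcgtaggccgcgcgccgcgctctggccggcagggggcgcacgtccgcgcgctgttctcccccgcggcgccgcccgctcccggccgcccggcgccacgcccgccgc
Txnrd1 window 2, chr10:82858956-82859205, plus strand: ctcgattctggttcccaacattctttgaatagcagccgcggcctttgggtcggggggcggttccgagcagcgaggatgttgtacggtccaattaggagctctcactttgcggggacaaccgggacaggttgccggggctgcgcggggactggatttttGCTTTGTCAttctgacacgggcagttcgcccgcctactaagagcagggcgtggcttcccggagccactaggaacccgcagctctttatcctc
Srxn1, chr2:152105274-152105523, plus strand: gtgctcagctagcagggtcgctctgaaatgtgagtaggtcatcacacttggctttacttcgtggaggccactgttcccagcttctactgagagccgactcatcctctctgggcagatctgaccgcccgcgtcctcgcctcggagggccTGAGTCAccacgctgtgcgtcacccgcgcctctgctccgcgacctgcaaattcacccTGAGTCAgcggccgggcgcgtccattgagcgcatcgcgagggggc
Prdx1, chr4:116685349-116685598, plus strand: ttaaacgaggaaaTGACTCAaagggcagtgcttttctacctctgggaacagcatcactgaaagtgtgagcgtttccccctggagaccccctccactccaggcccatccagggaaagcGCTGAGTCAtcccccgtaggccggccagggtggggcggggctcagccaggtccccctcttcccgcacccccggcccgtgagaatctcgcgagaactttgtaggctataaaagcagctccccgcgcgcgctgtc

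Each match begins a countable distance from the start. In Gclm the match begins 134 bases before it and reads TGACGGTGC on the opposite strand. In the Txnrd1 window, one of 3 annotated for that gene, it begins 92 bases before the start and reads TGACAAAGC on the opposite strand. Prdx1 has a match 133 bases before the start, reading TGACTCAGC on the opposite strand, that overlaps an AP-1 match, and a second AP-1 match 237 bases before the start. The capitals in Srxn1, 102 and 45 bases before the start, are AP-1 matches, and its match to the response element core, TGACCTAGC on the opposite strand, begins at base 29 after the start, beyond the printed stretch. Nfe2l2 has one 240 bases before its annotated start, reading TGACTCCGC, but the bases after that start were in 0 of its GENCODE M21 transcripts, so that window is less certain. A match describes letters only, and binding was not measured.

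Across the 10 genes, most pooled levels were higher with RO-3306, 5 of the 8 higher ones by less than 2-fold. The pooled ratios of the regulators Nfe2l2 and Keap1 were below 0. Their signs changed between sets and when a single control cell was left out, so no direction is read for either. The summed level of all 10 stood at 5521 CPM over the pooled control cells, against 8980 CPM over the treated ones. In single cells the sum had a lowest value of 2793, a median of 5437 and a highest value of 6841 CPM in control; with RO-3306 these were 3636, 9284 and 11714 CPM. The groups overlapped: 31 of 37 RO-3306 cells lay above the highest control cell, and 6 at or below it. The lowest RO-3306 cells of sets A, B and D, at 4276, 3636 and 5178 CPM, lay below the control median. The lowest RO-3306 cell, B3, had 56.0% of its counts on mitochondrial genes. Most of the summed level came from Prdx1, Txn1 and Prdx6, at 2391, 1169 and 944 CPM in control and 4234, 1508 and 1560 CPM with RO-3306. The sum thus says little about the other genes. Without Prdx1 the other 9 genes summed to 3129 and 4746 CPM.

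**Figure D1:**
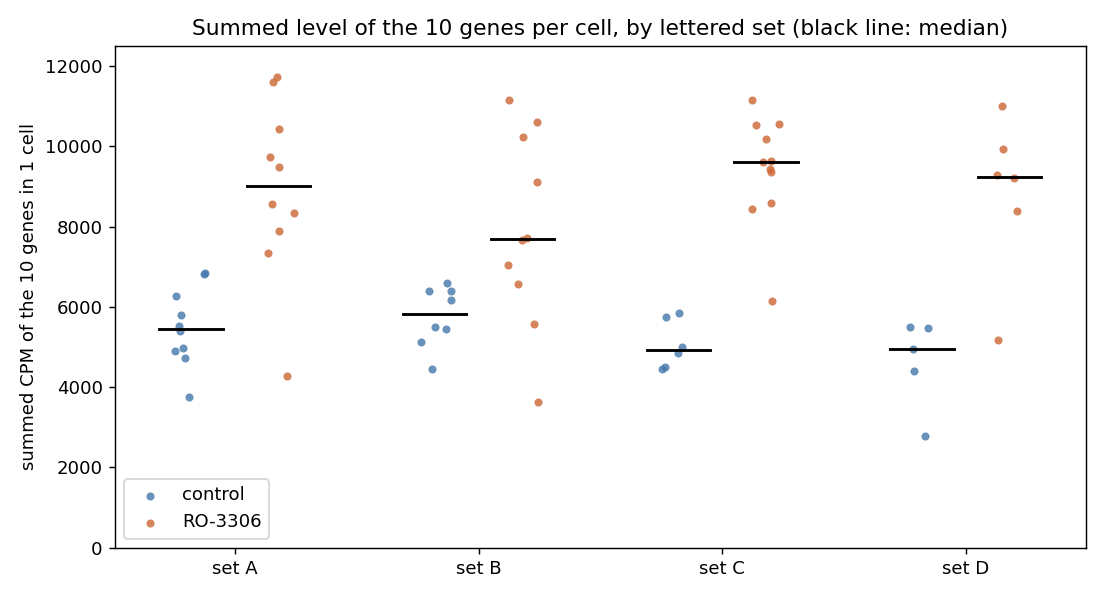
Summed CPM of the 10 genes in each kept cell (vertical axis, linear) by lettered set (horizontal axis), control in blue and RO-3306 in orange, with black lines at the medians. Set medians were 5459, 5830, 4923 and 4946 CPM in control and 9012, 7698, 9615 and 9242 CPM with RO-3306, and only in set C did the cells of the groups not overlap.

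The sums by set showed the higher level in each of the lettered sets, which split the cells into small groups of 5 to 11. In set C the highest control cell reached 5844 CPM and the lowest RO-3306 cell 6146 CPM. In the other 3 sets the lowest RO-3306 cell lay below the highest control cell.

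Counting genes singly, 8 of the 10 had a pooled log2 ratio above 0, where 41% of the 9374 genes whose mean reached 5 CPM did. A ratio here is the log2 of the quotient of pooled levels, RO-3306 by control, each with 1 CPM added. In all 4 sets, 6 of 10 were above 0 (background 13.1%; among genes of at least 50 CPM 6 of 9, background 17.4%): Gsr, Txn1, Txnrd1, Srxn1, Prdx1 and Prdx6. Below 0 in all 4 sets were 0 of 10, where 10.3% of all genes were. A gene was called higher or lower when its ratio was at least 1 in size with the same sign in all 4 sets and with cells weighted equally. By this rule 2 of 10 genes, Gsr and Srxn1, were called higher (background 7.18%), and 0 lower (background 6.43%). The median ratio of the 10 genes was 0.77, against −0.22 over all genes and −0.09 over the 3702 genes of at least 50 CPM. TMM and DESeq2 scaling shifted the ratios upward by 0.21 and 0.24; the genes called were then Gclm, Gsr, Srxn1 and Prdx1, 4 of 10 under each, where 9.37% and 9.66% of all genes were called higher. The share of higher among all calls, 52.7% in the unscaled ratios, was then 66.1% and 67.4%.

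**Figure D2:**
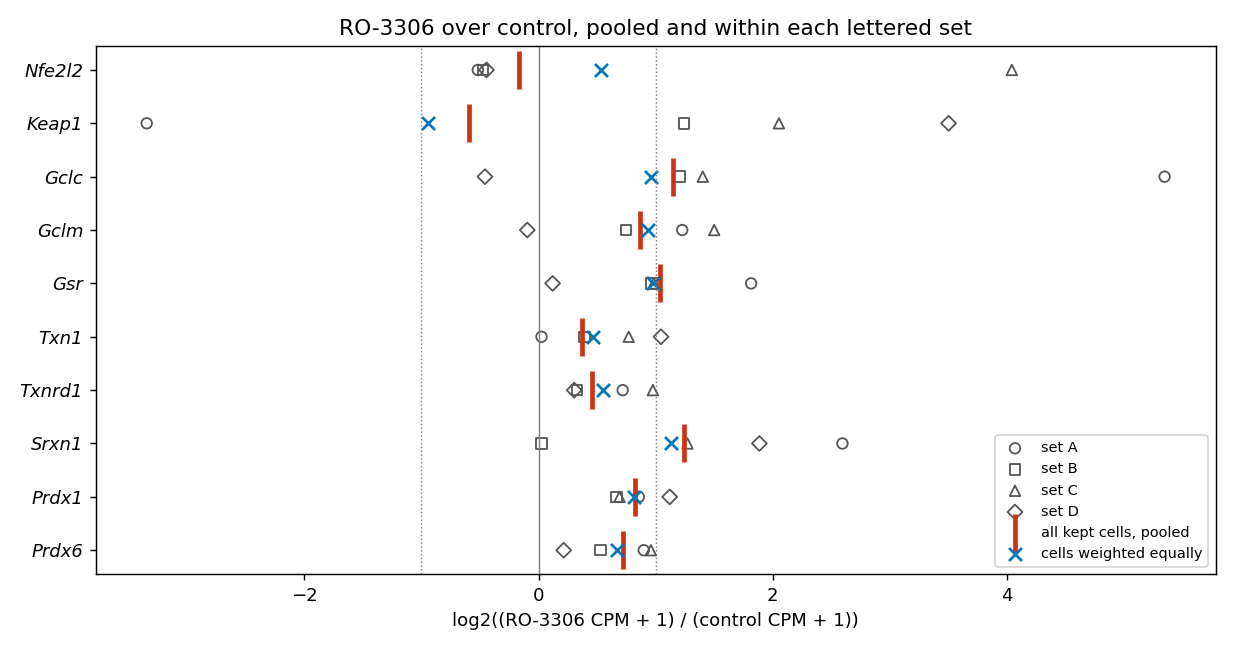
Log2 ratio of RO-3306 over control (horizontal axis) for each gene (vertical axis), with red bars for all kept cells pooled, blue crosses for cells weighted equally and open symbols for the lettered sets; dotted lines mark −1 and 1. Prdx1 lay between 0.66 and 1.12 in the 4 sets, while Keap1 ran from −3.35 to 3.50.

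The plot of ratios by set separates genes with narrow and wide ranges. Prdx1, Prdx6, Txn1 and Txnrd1, read in most cells, spanned about 1 log2 unit or less between sets. Keap1, Gclc and Nfe2l2, found in 10, 9 and 17 of 29 control cells, changed sign between sets. Gclm, with counts in every kept cell, also had 1 set below 0.

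Nfe2l2 (GRCm39 chr2:75505857-75535007, minus strand) encodes NRF2 itself, whose amount is set largely by protein degradation. Its level in single control cells was 0 at the lowest, 0.667 CPM at the median and 728 CPM at the highest, and in RO-3306 cells 0, 71.8 and 565 CPM. The ranges overlapped fully, and no RO-3306 cell exceeded the highest control cell. The pooled levels were 102 CPM (95% Poisson interval 99.8 to 104.6) and 91.0 CPM (89.1 to 93.0), a log2 ratio of −0.16. That sign does not hold across scalings: it was 0.04 with TMM, 0.07 with DESeq2 size factors and 0.53 with cells weighted equally. In sets A, B and D the ratio was −0.52, −0.47 and −0.45. In set C 3 of 6 control cells had a count, the pooled control level was 4.14 CPM and the ratio was 4.04. Without set B it was 0.02, and without its top control cell, A3, 0.03.

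Keap1 (GRCm39 chr9:21141026-21150628, minus strand), the adaptor that recruits NRF2 to the CUL3 ubiquitin ligase, was the scarcest of the 10. It ran from 0 through a median of 0 to 644 CPM in control cells, and from 0 through 0.400 to 95.5 CPM in RO-3306 cells. Counts were found in 10 of 29 and 20 of 37 cells. The pooled levels were 29.1 CPM (27.8 to 30.4) and 18.9 CPM (18.01 to 19.8), a log2 ratio of −0.60. Control cell A10 alone held 45.3% of the control counts, and without it the ratio was 0.21. In sets A to D it was −3.35, 1.24, 2.05 and 3.50, and without set A it was 2.05 and Keap1 passed the call rule as higher. No direction can be read for this gene.

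Among the glutathione genes, Gclm (GRCm39 chr3:122039206-122060864, plus strand) had counts in every kept cell. Its lowest, median and highest control cells were at 119, 263 and 1142 CPM, and the RO-3306 cells at 108, 544 and 1898 CPM. The ranges overlapped, but 34 of 37 RO-3306 cells were above the control median and 2 above the control maximum. Pooled over cells it stood at 327 CPM without RO-3306 (interval 323 to 331) and at 597 CPM with it (592 to 602). The log2 ratio was 0.87. The ratio was 1.23, 0.75 and 1.50 in sets A to C and −0.10 in set D, where the control level was 638 CPM, so Gclm was not called; without set D it was 1.05 and met the rule. Fractional counts, which arise when a read maps to several places, occurred in 95.5% of the libraries with a Gclm count, so a part of its reads is shared with other sequence and its level is less certain.

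Gclc (GRCm39 chr9:77661817-77701771, plus strand), the catalytic subunit, was detected in fewer cells. Control cells were at 0, 0 and 985 CPM (lowest, median, highest), and RO-3306 cells at 0, 7.12 and 578 CPM. A count was present in 9 of 29 control and 24 of 37 RO-3306 cells. The pooled levels were 38.3 CPM (36.9 to 39.9) and 86.4 CPM (84.5 to 88.3), a log2 ratio of 1.15. It was not called, because set D gave −0.46, against 5.35, 1.20 and 1.40 in sets A to C. Control cell B8 held 57.0% of the control counts, and without it the ratio was 2.29; without set A it was 0.57 and without set B 2.00. Leaving out control cell D8 made Gclc pass the rule.

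Gsr (GRCm39 chr8:34143266-34188190, plus strand), glutathione reductase, which regenerates glutathione from its oxidised form, rose. Its control cells were at 0, 26.99 and 636 CPM (lowest, median, highest) and its RO-3306 cells at 0, 137 and 542 CPM. The ranges overlapped, with 31 of 37 RO-3306 cells above the control median and 0 above the control maximum. Pooled, 91.4 CPM (89.1 to 93.7) became 188 CPM (185 to 191), a log2 ratio of 1.03, and 1.82, 0.97, 0.98 and 0.12 in sets A to D. The ratio lay close to the threshold of 1: with cells weighted equally it was 0.98, with cells thinned to equal depth 0.95, and without set A 0.73. The call also needed the set D ratio, 0.12, to stay above 0. Leaving out any of 13 of the 66 cells ended the call, namely control A1, A3, A5, A11, B5, B6, D7 or D8, or RO-3306 A9, B4, C5, C8 or D7. With each of the 66 cells left out in turn, the ratio was never below 0.92, the value without RO-3306 cell A9. It reached 1.42 without control cell B1, where the call held.

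Taken as a sum, the 3 glutathione genes reached 457 CPM in control, against 872 CPM with RO-3306. In single cells that sum was 144, 347 and 1437 CPM in control and 186, 834 and 2182 CPM with RO-3306 (lowest, median, highest), with overlapping ranges. Gclm made up most of the pooled sum (327 and 597 CPM), so the limit from its fractional counts applies to the sum too. The higher level did not extend to set D, where the ratios of Gclc, Gclm and Gsr were −0.46, −0.10 and 0.12. All 3 were found together in 6 of 25 control and 18 of 34 RO-3306 cells at equal depth. Gclc alone was found in 8 and 19 of these cells, and genes in general were found in more RO-3306 cells. The joint count is therefore not read as particular to these genes.

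**Figure D3:**
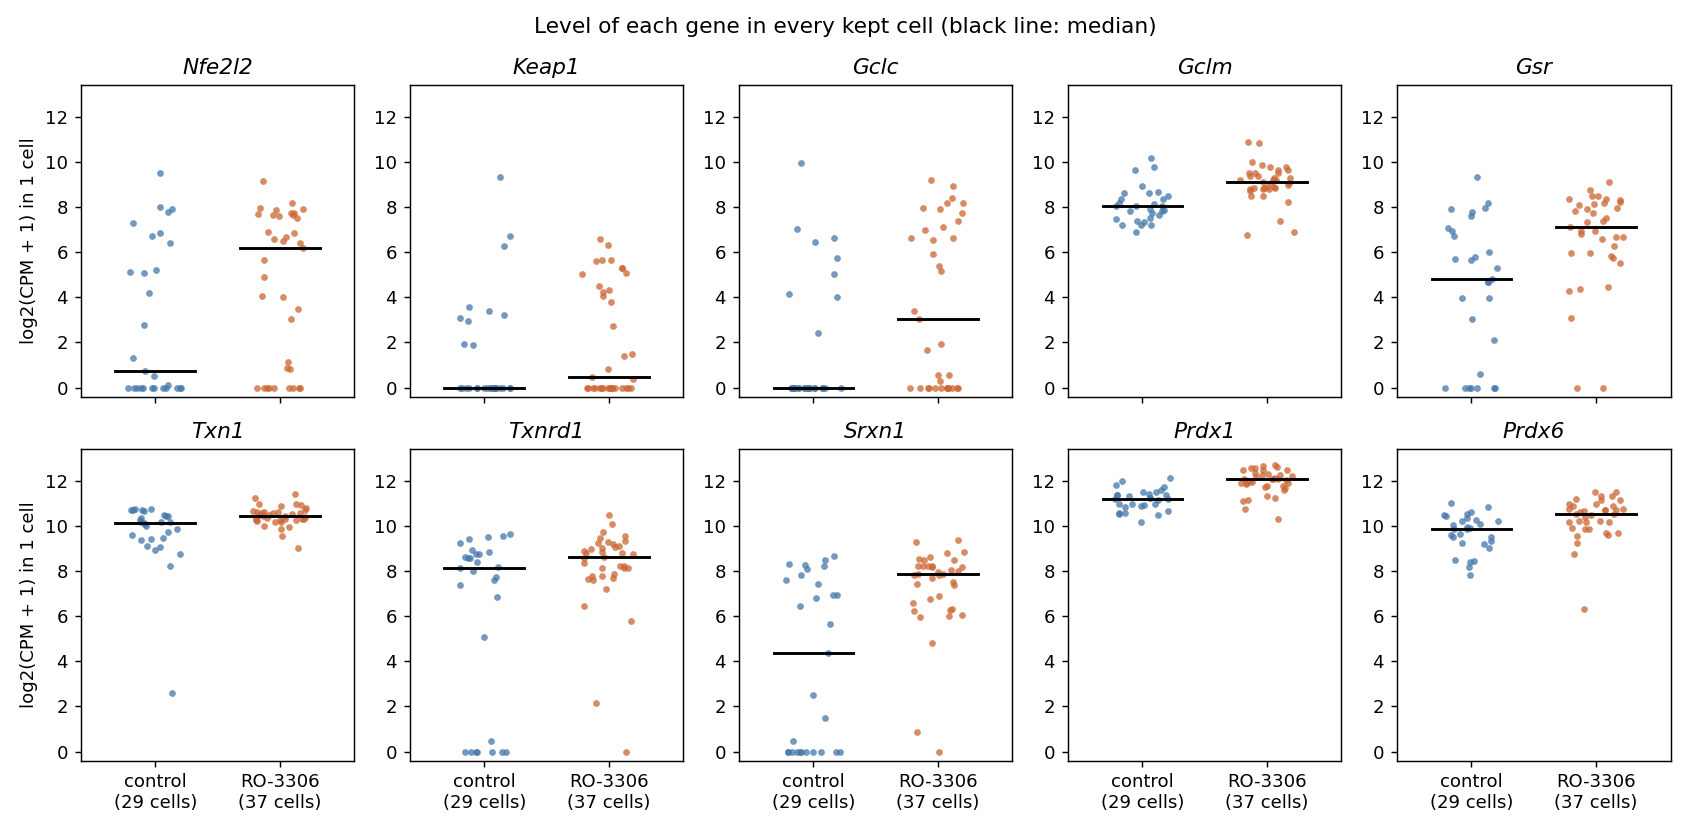
Level of each gene in every kept cell as log2(CPM + 1), a logarithmic scale (vertical axis), for 29 control cells in blue and 37 RO-3306 cells in orange, with black lines at the medians. Txn1, Gclm, Prdx1 and Prdx6 had counts in every cell, while Keap1, Gclc and Nfe2l2 had many cells at 0 in both groups.

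The plot of single cells shows that 4 of the genes were present in every cell and that the other 6 had cells at 0. Single cells at 0 in a full-length library of 1 cell can lack the transcript or have lost it in preparation. Since the contents of each cell were divided, the transcript can also have gone to the part not sequenced. These cannot be told apart.

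Srxn1 (GRCm39 chr2:151946738-151953296, plus strand), sulfiredoxin, which repairs overoxidised peroxiredoxins, rose as well. Control cells were at 0, 19.6 and 402 CPM (lowest, median, highest), and RO-3306 cells at 0, 231 and 668 CPM. A count was found in 18 of 29 control and 36 of 37 RO-3306 cells, 35 of the latter lay above the control median, and 4 above the control maximum. Pooled, 108 CPM (105.5 to 110.5) became 257 CPM (253 to 260), a log2 ratio of 1.24 (1.13 with cells weighted equally). The sets gave 2.59, 0.02, 1.27 and 1.89. In set B control cells already stood at 168 CPM against 171 CPM with RO-3306, and the call rests on that ratio being just above 0. Leaving out any of 9 cells therefore ended it, namely control B2, B4, B6 or B8, or RO-3306 B1, B4, B9, B11 or B12; without set B the ratio was 2.02, and without set A 0.76 and not called. The 250 bases printed above for Srxn1 hold the 2 AP-1 matches.

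Prdx1 (GRCm39 chr4:116542796-116557197, plus strand), an abundant cytosolic peroxidase that thioredoxin recycles and sulfiredoxin repairs, had the narrowest range of ratios over the sets. Its control cells were at 1159, 2349 and 4418 CPM (lowest, median, highest), and its RO-3306 cells at 1262, 4269 and 6692 CPM. The ranges overlapped, with 33 of 37 RO-3306 cells above the control median and 15 above the control maximum. Pooled, 2391 CPM (2380 to 2403) stood against 4234 CPM (4221 to 4248), a log2 ratio of 0.82, and the sets gave 0.86, 0.66, 0.69 and 1.12. This is below the call threshold of 1, which the ratio passed under TMM (1.03), DESeq2 (1.06) and a subtraction of the median ratio of genes with similar mRNA lengths (1.08). Fractional counts occurred in 86.4% of libraries with a Prdx1 count, so reads shared with related sequence make its level less certain.

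Prdx6 (GRCm39 chr1:161067682-161078780, minus strand), a peroxiredoxin that uses glutathione and also acts as a phospholipase, is prominent in lung. Control cells were at 227, 918 and 2080 CPM (lowest, median, highest) and RO-3306 cells at 77.6, 1478 and 2854 CPM. The lowest cell of all was RO-3306 cell A11, yet 30 of 37 RO-3306 cells were above the control median and 7 above the control maximum. Pooled levels were 944 CPM (937 to 952) and 1560 CPM (1551 to 1568), a log2 ratio of 0.72. The ratio was 0.90, 0.53, 0.96 and 0.21 in sets A to D, above 0 in all 4 and below the call threshold in each.

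Txn1 (GRCm39 chr4:57943373-57956411, minus strand), thioredoxin, the electron donor of the peroxiredoxins, had the smallest ratio of the genes above 0. It was at 4.96, 1100 and 1728 CPM in control cells (lowest, median, highest) and at 515, 1397 and 2678 CPM in RO-3306 cells. The lowest value came from control cell C3, one of the cells nearest the filter; 32 of 37 RO-3306 cells were above the control median and 7 above the control maximum. Pooled, 1169 CPM (1161 to 1177) stood against 1508 CPM (1500 to 1516), a log2 ratio of 0.37. The ratio was 0.02, 0.39, 0.77 and 1.05 in sets A to D. Genes of similar mRNA length had a median ratio of 0.26. With that median subtracted the ratio of Txn1 was 0.11, the lowest of its 17 alternatives.

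Txnrd1 (GRCm39 chr10:82669785-82733558, plus strand), thioredoxin reductase and a selenoprotein, was at 0, 282 and 791 CPM in control cells (lowest, median, highest) and at 0, 388 and 1415 CPM in RO-3306 cells. Counts were present in 22 of 29 control and 36 of 37 RO-3306 cells, while 24 of the 37 RO-3306 cells exceeded the control median and 3 the control maximum. The pooled levels were 320 CPM (316 to 324) and 440 CPM (436 to 445), a log2 ratio of 0.46, and 0.72, 0.33, 0.98 and 0.30 in the sets. Other annotated genes, Gm38560 and Eid3, overlap 23.7% of its span. The file headers name no strand or overlap option, so the counts of Txnrd1 are less certain. Of the genes in the lists below, Gpx8, Txnip, G6pdx and B2m lay wholly under another annotated gene and had 0 counts in every kept cell. Reads in overlapped stretches thus appear to have gone uncounted. The 0 counts of these genes do not show absence of the transcript. Summed, the 5 thioredoxin and peroxiredoxin genes reached 4933 CPM in control, against 7999 CPM with RO-3306.

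Levels of different genes were compared only per kilobase of mRNA, using the longest principal transcript in GENCODE M21; the values are approximate, since reads over the whole gene span, introns included, were counted. In control cells Txn1 stood first at 1112 CPM per kb and Prdx1 next at 1042.5, followed by Prdx6 at 396, Txnrd1 at 90.6, Gclm at 58.5, Nfe2l2 at 41.3, Srxn1 at 38.4, Gsr at 34.2, Gclc at 11.2 and Keap1 at 8.05. In RO-3306 cells Prdx1 stood first at 1846 CPM per kb, then Txn1 at 1435, Prdx6 at 653, Txnrd1 at 125, Gclm at 107, Srxn1 at 91.3, Gsr at 70.4, Nfe2l2 at 36.8, Gclc at 25.2 and Keap1 at 5.23. The peroxidases and thioredoxin thus stood well above the enzymes that serve them in both groups. Nfe2l2, Srxn1 and Gsr lay close together in control, and the spread over their single cells was far wider than the gaps between them.

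The share of cells with any count was compared at 639000 reads per cell, because depth differs between cells. Of the genes, 4 of 10 were found in a share at least 20 percentage points larger with RO-3306 (background 27.4%): Nfe2l2, Gclc, Txnrd1 and Srxn1. Smaller by that much were 0 of 10 (background 1.98%). Srxn1 was found in 16 of 25 control cells, 64.0% (exact Clopper-Pearson interval 42.5 to 82.0), and 33 of 34 RO-3306 cells, 97.1% (84.7 to 99.9). Txnrd1 was found in 72.0% (50.6 to 87.9) and 97.1% (84.7 to 99.9), with intervals that overlap slightly. The intervals of Nfe2l2, 52% (31.3 to 72.2) and 73.5% (55.6 to 87.1), and of Gclc, 32% (14.9 to 53.5) and 55.9% (37.9 to 72.8), overlapped. Genes in general were found in more RO-3306 cells at equal depth, and the share of all genes with separate intervals was not computed. Neither the count of 4 nor the separate intervals of Srxn1 are therefore read as particular to these genes. A median of 8 of the 10 genes was found per control cell and 9 per RO-3306 cell.

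**Figure D4:**
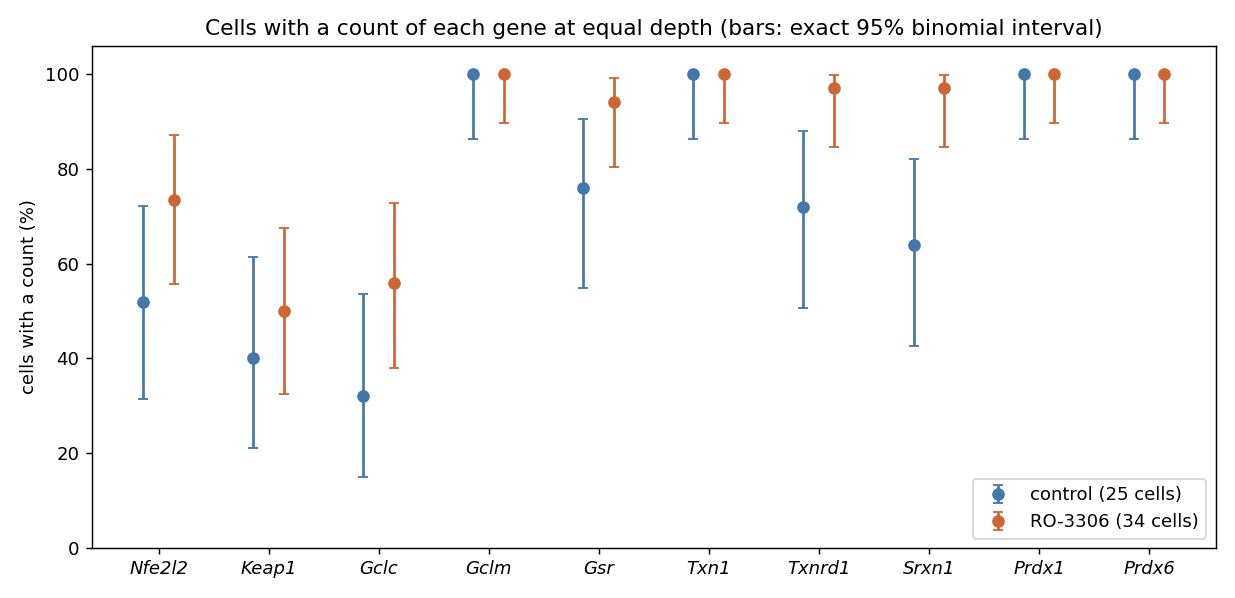
Percent of cells with a count of each gene (vertical axis) after each cell was thinned to 639000 reads, for 25 control cells in blue and 34 RO-3306 cells in orange, with exact 95% binomial intervals for counting error. Among the genes shown, only Srxn1 has intervals that do not overlap, at 64.0% and 97.1%. The share of all genes with separate intervals was not computed, so this is not read as particular to Srxn1.

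Levels of the 10 genes were also compared with each other across the cells of each treatment. Over the 45 pairs, Spearman's rho across cells at equal depth had a median of 0.08 in 25 control cells (range −0.34 to 0.42) and 0.03 in 34 RO-3306 cells (range −0.40 to 0.36). These cells share chemistry and depth, and weak values in sparse counts show neither shared nor separate variation. By the rule fixed for likeness, over 2952 other genes, the gene most like Gclm was Aldh18a1 (the smaller rho of the 2 groups was 0.44), followed by Shmt2 and Spc25. For Srxn1 they were Capza1 (0.40), Camk2d and Cops4, for Txnrd1 Rbck1 (0.40), Tmem242 and Snx2, and for Prdx1 Cd63 (0.46) and Pdlim7. These are the highest values of a search over 2952 genes in 25 and 34 cells. How high the best value would run among unrelated genes was not tested.

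The other genes of the pathway were read from lists by role, each list having been drawn up with earlier results of these data known. Among 15 of 17 other NRF2 target genes with at least 5 CPM, 7 were called higher and 0 lower, with a median ratio of 1.20. For this list and those that follow, the share of all genes called is the 7.18% higher and 6.43% lower given above. The largest ratios were those of Hmox1, haem oxygenase, from 22.4 to 125 CPM (log2 ratio 2.43), and Ftl1, the ferritin light chain, from 3730 to 17674 CPM (2.24). The lowest were those of Pgd, of the pentose phosphate pathway, at 47.9 and 30.8 CPM (−0.62), and Ugdh at 278 and 222 CPM (−0.32). The other 5 called, named because they were called, were Fth1, the ferritin heavy chain (1.84), Blvrb, biliverdin reductase B (2.00), Ephx1, epoxide hydrolase (1.72), Taldo1, transaldolase (1.23), and Sqstm1, the autophagy adaptor p62 (1.20). The pooled ratios of Hmox1, Ftl1, Blvrb, Nqo1, Fth1 and Ephx1 were larger than any of the 10 genes described here had. Nqo1, a quinone reductase named here after its values were seen, was at 49.5 and 193 CPM (1.94) but was not called: 78.9% of its control counts came from a single cell, and its ratio was −0.47 in set C and 0.29 with cells weighted equally.

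**Figure D5:**
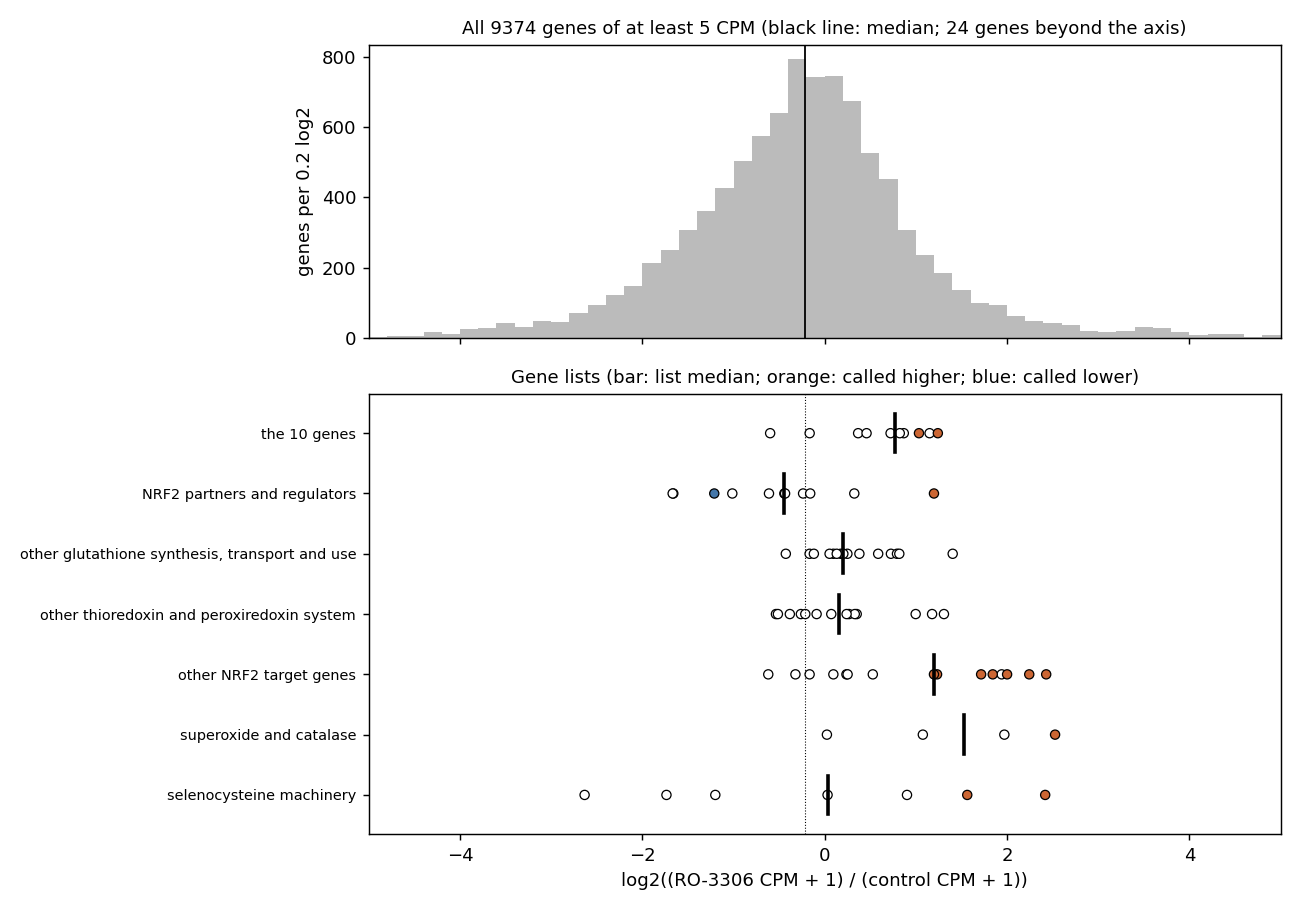
Top: log2 ratio of RO-3306 over control (horizontal axis) for 9374 genes, counted in steps of 0.2 (vertical axis), with the median at −0.22; 24 genes lie beyond the axis. Bottom: the same ratio for each gene of 7 lists, with bars at list medians, orange for genes called higher and blue for genes called lower; the 10 genes have a median of 0.77 and the other NRF2 targets 1.20.

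The plot of gene lists sets these medians side by side. Of 11 NRF2 partners and regulators, 1 was called higher and 1 lower, with a median of −0.44. Sqstm1, which also binds KEAP1, went from 410 to 943 CPM, with 1.22, 1.13, 1.11 and 1.30 in the sets, and Maff, a small MAF partner, was at 6.75 and 8.71 CPM (0.32). Cul3, the ligase scaffold that acts with KEAP1, was at 161 and 49.9 CPM (−1.67) and Bach1, a repressor at the same response elements, at 11.5 and 2.94 CPM (−1.66), and neither was called, since at least 1 set went the other way. The gene called lower was Nfe2l1, the paralog of Nfe2l2, from 187 to 80.1 CPM (−1.21), named because it was called.

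Of 17 other glutathione genes 15 had at least 5 CPM, and 0 of them were called in either direction, with a median ratio of 0.20. The highest ratios were those of Hagh, of the glyoxalase system, at 38.2 and 103 CPM (1.40; −0.73 in set C) and Gpx4, the lipid peroxide reductase, at 1226 and 2163 CPM (0.82). The lowest were those of Ggct, gamma-glutamylcyclotransferase, at 15.2 and 11.03 CPM (−0.43), and Abcc1, an exporter of glutathione conjugates, at 25.1 and 22.3 CPM (−0.17). For 14 of 16 other thioredoxin and peroxiredoxin genes the median was 0.16, and again 0 were called. Txnrd3 (1.31) and Msrb1 (1.18) were highest, both under 10 CPM in each group, and Txnl1 (−0.53) and Sesn1 (−0.51) lowest.

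The 4 superoxide and catalase genes had a median of 1.52, and 1 was called. Sod1, the cytosolic superoxide dismutase, went from 39.01 to 230 CPM (2.53), although other genes overlap 30.8% of its span. Sod3 was at 20.4 and 83.0 CPM (1.97), Cat, catalase, at 33.9 and 72.6 CPM (1.08) and Sod2, the mitochondrial enzyme, at 213 and 216 CPM (0.02). Of 7 genes of the selenocysteine machinery, which builds the active residue of TXNRD1, 2 were called higher: Sephs2, which makes selenophosphate, from 22.4 to 124 CPM (2.42), and Eefsec, the selenocysteine elongation factor, from 5.60 to 18.5 CPM (1.56). Sepsecs, at 17.7 and 2.01 CPM (−2.63), and Secisbp2, at 23.5 and 6.36 CPM (−1.74), had the lowest ratios and were not called; the median of the list was 0.03.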

How the data were processed

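Each of the 96 files holds the counts of 1 library. Per the file headers, the authors counted reads over whole gene spans, introns included, with featureCounts 2.0.3 on a RefSeq GRCm39 annotation, with reads that map to several places split into fractions, so the deposited values are expected counts; FastQC and STAR are also named in the submitters' processing notes, and their versions are not given in the sources used here. The library kit was SMART-seq v4, which makes full-length cDNA without molecular identifiers, per the labels' protocols, so counted reads are not independent molecules.

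Cells with at least 50000 counts and 1000 genes were kept. Counts were not rounded, were summed per group and divided by the group total to CPM, with 1 CPM added for log2 ratios; the fold rule was applied to the 9374 genes whose mean reached 5 CPM. Intervals are exact Poisson for levels and exact Clopper-Pearson for shares, at 95%. No test was run, because the labels name 1 sample per group. TMM factors came from edgeR 4.0.16 and size factors from DESeq2 1.42.0 in R 4.3.3, as scalings only; the rest used Python 3.11.15, numpy 2.4.6, pandas 2.3.3 and scipy 1.17.1. The scripts were tested on simulated data.

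The 10 genes and all lists were chosen with earlier results of these data known. The text names all 10, the 2 highest and 2 lowest ratios of each other list, and the 3 genes most like each of Gclm, Srxn1, Txnrd1 and Prdx1, of which 1 is not reported here. Gene spans and overlaps are those of the files (GRCm39), promoter windows are RefSeq GRCm38.p6, and transcript lengths are GENCODE M21, found for 97.2% of genes of at least 5 CPM. Alternatives were other scalings, pseudocounts, filters, depths, sets left out, a length adjustment and, added after seeing the data, each cell left out in turn.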

Additional observations from a re-analysis of the deposited data

Results flagged for a closer look

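Libraries left out by the cell filter, 19 control and 11 RO-3306, held few counts (341166 and 1162600 in all). Some of the 10 genes had almost none there, such as Nfe2l2 with 1 control and 4 RO-3306 counts and Gsr with 2 and 8. For 5 of the 10 the Poisson intervals of the groups did not overlap, with the higher level in the RO-3306 libraries. The same held for 10.8% of the 9374 genes whose kept cells reached 5 CPM. That share includes genes of low level, whose intervals separate less readily, while the 5 had the highest pooled CPM of the 10 in kept cells. A share over genes of similar level was not computed, so the 2 shares are not compared. Prdx1 was at 3703 CPM (95% Poisson interval 3593 to 3815) against 85.0 CPM, Txn1 at 576 CPM against 14.7 CPM, and Prdx6 at 969 CPM against 26.4 CPM. Gclm was at 45.2 CPM against 8.30 CPM, and Txnrd1 at 20.6 CPM against 0, where 3 counts would give 8.79 CPM. A single library, RO-3306 D4, with 184369 counts and 874 genes, held 90.5% of these Prdx1 counts, 75.7% of the Txn1 counts and 70.3% of the Prdx6 counts. Another, RO-3306 B8, with 19068 counts, held 83.3% of the Txnrd1 and 36.8% of the Gclm counts.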

How the results depend on the processing

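The median log2 ratio of the 10 genes, 0.77, was 0.98 with TMM, 1.01 with DESeq2 size factors, 0.74 with cells weighted equally, 0.71 at equal depth, 1.03 after subtraction of the median ratio of genes with similar mRNA lengths, 0.82 over genes of at least 50 CPM, and 0.68, 0.82, 0.68 and 0.80 without sets A, B, C and D. With each cell left out in turn, an alternative added after seeing the data, it ranged from 0.72 to 0.82. The 2 genes called (7.18% of all genes higher) became 4 with TMM (9.37%), with DESeq2 size factors (9.66%), without set D (9.28%) and at a ratio of at least 0.5 (11.04%), and 5 after the length adjustment (9.49%). The number was 1 with cells weighted equally (7.23%), at equal depth (8.18%) and without set A (10.8%), where the 1 was Keap1. With each cell left out in turn the number ran from 0 (without control B6 or RO-3306 B4) to 2, and both calls were kept in 46 of 66 cases. The cause of these changes was not tested. In 17 alternatives per gene, Gclc, Gclm, Gsr, Txn1, Txnrd1, Srxn1, Prdx1 and Prdx6 stayed above 0 in all 17; Nfe2l2 was above 0 in 7 and Keap1 in 3. Keap1 and Gclc have 45.3% and 57.0% of their control counts in a single cell each, which limits both ratios. No paired analysis was possible because the numbers in the titles name single cells and no test was run.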

Other observations

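Of 8 housekeeping genes with at least 5 CPM, 0 were called in either direction, with a median log2 ratio of −0.05. The highest were Gapdh (0.49) and Hprt (0.26), and the lowest Sdha (−0.93) and Actb (−0.70). Among the 7 mesenchymal markers at that level, every pooled ratio was below 0 and 2 were called lower: Col1a1, from 714 to 127 CPM (−2.48), named because it was called, and Col3a1, from 603 to 83.6 CPM (−2.84). Pdgfrb had the lowest ratio (−4.62), with counts in 7 control and 2 RO-3306 cells, and was not called, while Vim (−0.94) and Col1a2 (−0.88) had the highest. The alveolar type II markers that reached 5 CPM were Abca3 (−0.74) and Lpcat1 (0.44), and the macrophage markers Lyz2 (−0.86) and Cd14 (0.76), and none of these 4 was called.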
